A study of Bos taurus with 2 samples.

Results

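The lysosomal genes described here are 33 genes of the degradative compartment of the cell, chosen by function and listed with *GPNMB*, a glycoprotein gene already known to be higher in the LN pool when the list was drawn up. They encode lysosomal membrane proteins, proton pump subunits, cathepsins, other hydrolases and their cofactors, and the transcription factor *MITF*. Probes were assigned to them through the transcript accession given with each probe. A probe was matched for 32 of the 33 genes, the exception being *GRN*, and all 32 gave a value, among 19554 genes with a value on the arrays. Of these 19554, 10637 carried a gene symbol, and each accession without a matched symbol was counted as a gene of its own. The tissue was the longissimus thoracis (LT) muscle of Japanese Black fetuses at 8.5 months of gestation. The HN array carried RNA pooled from 4 fetuses whose dams received 120% of the nutritional requirement during gestation, and the LN array RNA pooled from 4 fetuses whose dams received 60%. Following the study's methods, the heaviest HN fetuses and the lightest LN fetuses were pooled, so that diet and BW cannot be told apart. Each pool was hybridized once. The spread between fetuses is therefore unknown from the arrays, no test between the pools was possible, and every comparison below is a description of 1 array against another. In qRT-PCR of the single fetuses, the study reports *GPNMB* as higher in LN at the level it calls a trend, by a one-sided t-test.

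Lysosomes are acidic organelles in which proteins, glycans and lipids delivered by endocytosis and autophagy are broken down. A rotary proton pump, the V-ATPase, keeps their lumen acidic, heavily glycosylated membrane proteins line them, and many of their genes carry binding sites for factors of the MiT/TFE family, to which MITF, TFEB, TFE3 and TFEC belong. GPNMB is a transmembrane glycoprotein of lysosomes, melanosomes and the cell surface, best known from macrophages, osteoclasts and pigment cells. In muscle, lysosomes take part in protein and glycogen turnover, and loss of the acid glucosidase GAA causes glycogen storage in fibres.

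The only member past 2-fold was *GPNMB*, which was higher in the LN pool, while the 31 other members with a value lay between -0.52 and 0.22 on the log2 scale. After the normexp background correction *GPNMB* was 1.84-fold higher, and no member was past 2-fold. Differences are given as a log2 ratio (log2 LN/HN), the normalized log2 signal of the LN array minus that of the HN array, averaged over the probes of a gene, so that a positive value means higher in LN. A signal is the background-corrected intensity of a probe before normalization between the arrays. *GPNMB* has a pair of probes, each well above background in HN and LN. The signal of the probe A_73_P250771 was 55.7 in HN and 142.0 in LN, and its log2 ratio after normalization was 1.36. For A_73_115967 the signals were 29.0 and 95.3, and the log2 ratio was 1.75. Both probes were thus brighter on the LN array, by 2.57-fold and 3.36-fold, and the gene had a mean log2 ratio of 1.55, or 2.94-fold. It held place 20 from the top of all 19554 genes, and places from 9 to 178 under the other ways of processing described below, the last without a filter on dim probes. Among the 10637 genes with a symbol, *GPNMB* held place 8.

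These differences were larger than the technical error estimated for the arrays, which holds no variation between fetuses. The error estimate of the extraction software corresponds to 0.21 on the log2 scale for either probe. Probes with a mean log2 signal within 0.5 of that of A_73_P250771 had an SD of the log2 ratio of 0.25, and 5 of these 3476 probes were at its value or above, itself included. Around A_73_115967 the SD was 0.28, and 2 of 3522 probes were at its value or above, itself included. This spread covers both the array error and true differences between the pools, but not the variation between fetuses. *GPNMB* was already known to be higher when it was listed, so its place among these probes describes its value and is no separate support.

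**Figure D1:**
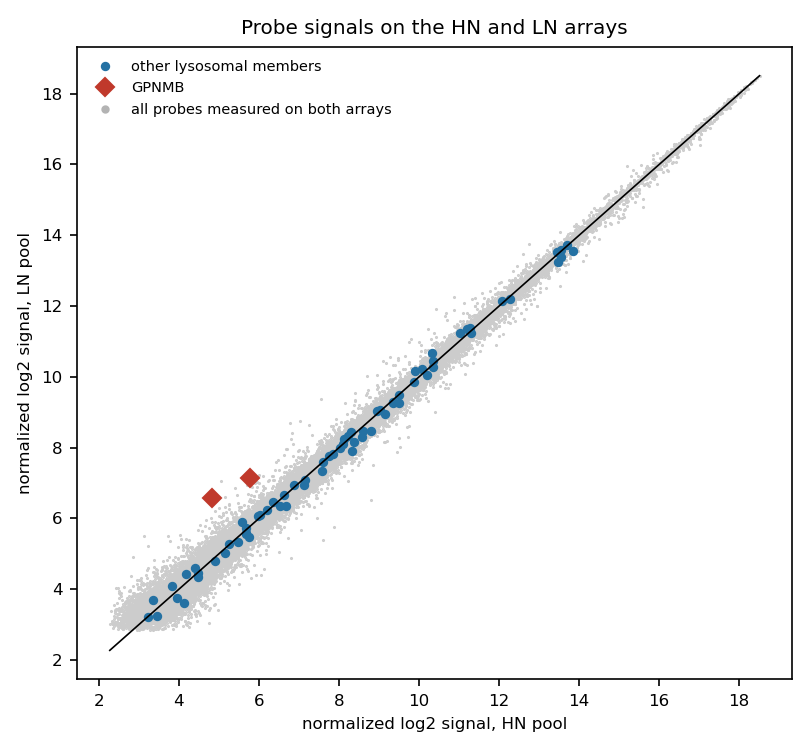
Normalized log2 signal of each probe on the HN array (horizontal axis) and on the LN array (vertical axis), for the probes measured on both arrays. Both probes of *GPNMB* (diamonds) lie above the line of equal signal, while the probes of the other lysosomal members (circles) follow it over the whole range of signals.

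The other members lay far from *GPNMB*. Without it, the median log2 ratio of the members was -0.041, with 13 genes higher and 18 lower in the LN pool, against a median of -0.0033 over all genes. Their SD was 0.16, that of all genes 0.29, but the quartiles were nearly as far apart, at -0.15 and 0.070 for the members and at -0.14 and 0.13 for all genes. The study listed genes past a ratio of 5 to 4, which is 0.32 on the log2 scale. Past this threshold, 1 of 32 members was higher, *GPNMB* itself, and 1 was lower, *PSAP*. Over all genes, 8.85% were past the 0.32 threshold higher, 9.11% past the 0.32 threshold lower and 0.711% past 2-fold higher. Scaled by the 75th percentile of each array, 1191 genes were past it higher and 2693 lower, in place of 1731 and 1781. The number of members past the 0.32 threshold lower was 2 when each array was scaled by its 75th percentile in place of quantile normalization, *CTSD* being added, and 0 after the normexp background correction. The highest member after *GPNMB* was *LAMP2*, with a log2 ratio 1.33 below it. For 13 of the 31 genes (41.9%), the difference was smaller than the median SD between the probes of 1 gene on these arrays (0.099), a share close to the 38.6% of all genes.

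**Figure D2:**
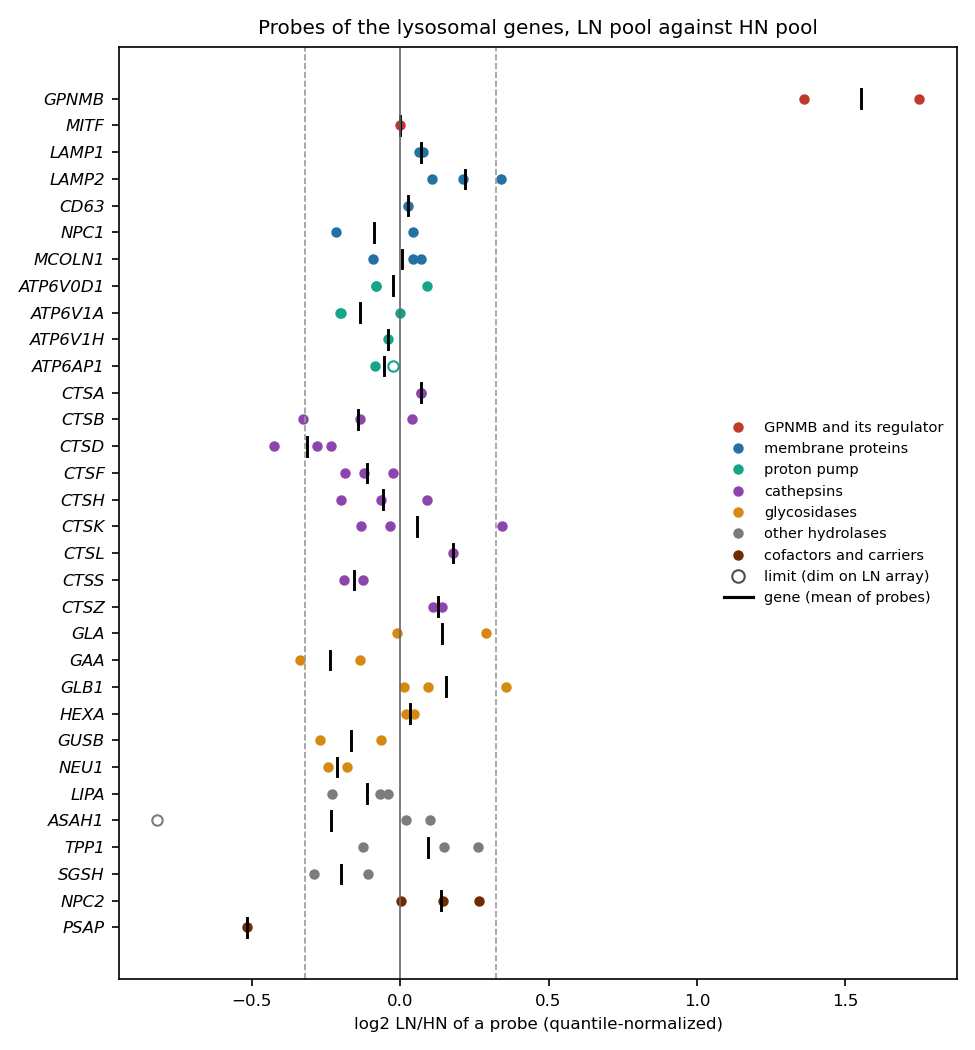
Log2 LN/HN of every probe of the 32 lysosomal genes with a value, by role; vertical bars give the mean of a gene, open circles are limits from probes that were dim on the LN array, and dashed lines mark the 0.32 threshold. *GPNMB* stands alone at 1.36 and 1.75, and no other probe is above 0.36.

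Among the regulators, *MITF*, which drives *GPNMB* in pigment cells and osteoclasts, had signals of 193.1 (HN) and 195.9 (LN). Its single probe gave a log2 ratio of -0.00064. *TFEB*, the main activator of lysosomal genes under starvation, had a log2 ratio of -0.11 from 3 probes (-0.29 to 0.047), and *TFE3* of 0.031 from 1 of its 3 probes. The value of 0.047 came from the brightest *TFEB* probe, with signals of 5000 and 5279, the others being dim. After the normexp correction the value of *TFEB* was -0.0084. *TFEC* was lower (-0.34, a 1-probe gene), but its signals of 13.3 and 9.59 were dim, and after the normexp correction its value was 0. As processed for the report, none of these 4 factors was thus higher in the LN pool by more than the spread between probes. Under the other ways of processing described below, *TFE3* lay between -0.0082 and 0.28. The structural relative of *GPNMB*, the melanosomal fibril gene *PMEL*, went the other way, with signals of 28.1 and 17.5 and a log2 ratio of -0.60, or -0.23 after the normexp correction. Of the genes for binding partners and for the protease that sheds GPNMB from the cell surface, *CD44* had a log2 ratio of 0.026, *ITGB1* of 0.12, *ITGA5* of -0.11 and *ADAM10* of -0.080. No probe was matched to *SDC4*.

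The membrane proteins were close to equal in both pools. *LAMP1*, the most widely used lysosomal marker, had probe signals of 11067 and 65.5 in HN and 11785 and 68.2 in the LN pool. Its log2 ratio was 0.070. *LAMP2*, needed for the fusion of autophagosomes with lysosomes, had signals of 2421, 2057 and 1260 in HN and 2688, 2455 and 1649 in the LN pool. All 3 of its probes were higher in the LN pool (log2 ratio from 0.11 to 0.34), and its mean of 0.22 was the highest after *GPNMB*. The tetraspanin *CD63*, shared by late endosomes and exosomes, had signals of 11976 and 12451 and a log2 ratio of 0.026. The cholesterol exporter *NPC1* (-0.087) and the calcium channel *MCOLN1* (0.0069) had probes on both sides of 0.

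All 4 proton pump members were slightly lower in the LN pool. *ATP6V1A*, the catalytic subunit, had a log2 ratio of -0.13 and *ATP6V1H*, a regulatory subunit, of -0.041. *ATP6V0D1*, of the membrane sector, had a log2 ratio of -0.023, and the accessory subunit *ATP6AP1* of -0.054, including a limit. The brightest probe of *ATP6AP1* had signals of 1288 and 1259. The differences of *ATP6V0D1*, *ATP6V1H* and *ATP6AP1* were smaller than the SD between probes. That of *ATP6AP1* was -0.084 with probes well above background on both arrays only, and reached -0.49 with dim probes as measured.

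Of the 9 cathepsins, 4 were higher and 5 lower, with a median log2 ratio of -0.058. The aspartic protease *CTSD* was the lowest. Its signals were 14637, 11424 and 318.4 in HN and 12207, 9800 and 240.9 in the LN pool, so that every probe was lower (log2 ratio from -0.43 to -0.23). The mean was -0.31, just inside the 0.32 threshold. *CTSS*, a cysteine protease of antigen-presenting cells, had a log2 ratio of -0.16, and *CTSF*, a cysteine protease, of -0.11, with every probe lower. The 3 probes of *CTSB*, the most general cysteine cathepsin, ranged from -0.33 to 0.039, and those of the aminopeptidase *CTSH* from -0.20 to 0.091. In the other direction, *CTSZ*, a carboxypeptidase, had a log2 ratio of 0.13 and *CTSA*, which protects the β-galactosidase GLB1 and the sialidase NEU1 from breakdown, of 0.070, their probes being close to each other. *CTSL* had a value of 0.18 from 1 dim probe (21.9 and 23.6). The collagen-degrading *CTSK* had a log2 ratio of 0.058, but only its probe with signals of 47.9 and 59.8 was higher (0.34). The values of the other 2 probes were -0.13 and -0.035.

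The glycosidases were split as well, with 3 genes higher and 3 lower, or 1 and 5 when arrays were scaled by their 75th percentile, *GLA* and *HEXA* then lying just below 0. *GAA*, which hydrolyses glycogen in the lysosome, had signals of 103.1 and 22.7 in HN and 81.5 and 19.7 in the LN pool. Both probes were lower (-0.34 and -0.13), giving a log2 ratio of -0.24. *NEU1*, which removes sialic acid, had signals of 721.6 and 92.7 in HN and 627.0 and 81.6 in the LN pool, and a log2 ratio of -0.21. The β-glucuronidase *GUSB* had a log2 ratio of -0.17. *GLB1* was higher with each of its 3 probes (0.012 to 0.36, mean 0.15), the probe of 0.36 being dim (10.7 and 12.5). *GLA*, an α-galactosidase, had a log2 ratio of 0.14, from dim probes only, and the hexosaminidase subunit *HEXA* of 0.032.

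For the hydrolases of lipids, peptides and heparan sulfate, the values were equally small. The cholesteryl ester hydrolase *LIPA* had a log2 ratio of -0.11 from 3 probes, all lower, and the sulfamidase *SGSH* of -0.20 from 2 probes, both lower. Each had a further probe, not well above background in LN, for which no fold could be given. The tripeptidyl peptidase *TPP1* had a log2 ratio of 0.095 with probes from -0.12 to 0.26. The acid ceramidase *ASAH1* had signals of 1275 and 517.2 in HN and 1422 and 541.5 in the LN pool for its bright probes, both of which were higher (log2 ratio 0.10 and 0.020). Its mean of -0.23 was due to the third probe, dim on the LN array, whose limit was -0.82. With probes well above background on both arrays only, the direction of *ASAH1* was therefore reversed.

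Of the cofactors, *NPC2*, which hands cholesterol to NPC1, had signals of 1063, 940.9 and 214.2 in HN and 1217, 1171 and 218.9 in the LN pool. No probe was lower, and its log2 ratio was 0.14. *PSAP*, the precursor of the saposins that assist sphingolipid hydrolases, was the lowest of all members (-0.52). Only 1 dim probe represents it, with signals of 18.0 and 11.6, and after the normexp correction its log2 ratio was -0.099.

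At the level of probes, the members had 75 probes, 71 of them well above background in HN and LN alike and 4 in HN alone. Of the 69 probes on both arrays that do not belong to *GPNMB*, 3 were past the 0.32 threshold higher, against 8.59% of all such probes, and 4 past the 0.32 threshold lower, against 8.31%. The former were single probes of *LAMP2*, *CTSK* and *GLB1*, and the latter single probes of *CTSB*, *CTSD*, *GAA* and *PSAP*. Other probes of *CTSK* were lower while 1 was higher, so that a call on 1 probe would not have held for the gene. Several probes were measured in both HN and LN for 26 members, and 18 of these had all such probes on the same side of 0. The matching share over all genes was not computed, so this count is a description only.

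Beyond the 33 genes, 109 other symbols of lysosomal function were listed by hand. A value was obtained for 94 genes, of which 32 (34.0%) were higher and 62 lower in LN, the median log2 ratio being -0.066, while 49.3% of all genes were higher. Scaled by the 75th percentile, 30 were higher and 64 lower, and 41.6% of all genes were higher. Past the same threshold, 3 of these genes were higher (3.19%) and 12 lower (12.8%), while the shares of all genes were 8.85% and 9.11%. With arrays scaled by their 75th percentile the division was 2 higher and 19 lower, where 6.00% of all genes were past the threshold higher and 13.6% lower. After the normexp correction it was 1 higher and 2 lower, where the shares of all genes were 1.62% and 1.98%. None was past 2-fold as processed for the report. From the deposited values, which are described as quantile-normalized too, *ATP6V0A1* had a log2 ratio of -1.16, from a dim probe.

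**Figure D3:**
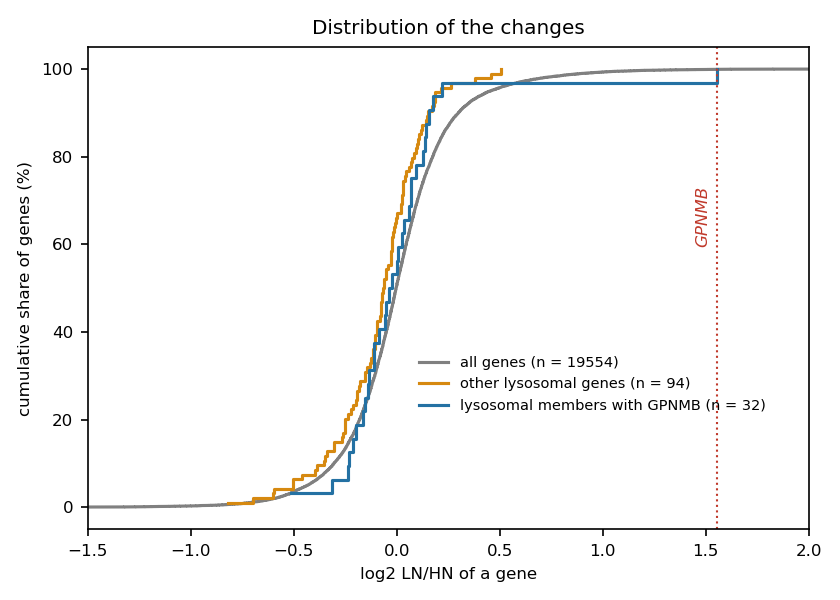
Cumulative share of genes (vertical axis, percent) by log2 ratio (horizontal axis) for all 19554 genes, 94 other lysosomal genes and the 32 members with a value. *GPNMB*, at 1.55, is the last step of the members; the genes below it end at 0.22, and the highest of the other lysosomal genes is at 0.51.

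The higher genes of this wider list included *MANBA*, a glycosidase, and *ATP6V0E2*, a subunit of the membrane sector of the pump. The probes of *MANBA* had signals of 710.9 and 235.1 in HN and 985.2 and 299.4 in the LN pool, a log2 ratio of 0.38. The value of *ATP6V0E2*, 0.51, includes a limit, and the gene is named here after its value was seen. Of the 17 pump genes of this list, 7 were higher and 10 lower, with a median log2 ratio of -0.025. The lowest values measured on both arrays were those of 2 other pump subunits. *ATP6V1G2*, known mainly from neurons, had signals of 317.5 and 252.9 in HN and 199.8 and 156.2 in the LN pool, and a log2 ratio of -0.70. *ATP6V0A1* had a log2 ratio of -0.82 from 1 dim probe (16.6 and 8.60), and of -0.087 after the normexp correction. *ACP5*, the tartrate-resistant acid phosphatase of osteoclasts and macrophages, was lower with all 4 probes (-1.01 to -0.41, mean -0.60). The cystine exporter *CTNS* (-0.51) and *CST6*, a secreted inhibitor of cysteine cathepsins (-0.51), were lower too. After the normexp correction *ACP5* (-0.27) and *CTNS* (-0.29) lay inside the threshold. Of 10 genes of nutrient sensing at the lysosome surface, such as the Ragulator and Rag GTPase subunits, none was past the 0.32 threshold, and the highest and lowest values were 0.15 and -0.15. With 10 genes, this cannot be set apart from the shares of all genes, 8.85% past it higher and 9.11% lower.

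Because *GPNMB* and several cathepsins are abundant in cells other than muscle fibres, marker genes of 10 cell types were read on the same arrays. In a whole muscle sample, fewer cells of a type and less RNA per cell cannot be told apart. All 20 probes of the matched skeletal muscle markers were well above background on both arrays, and their summed normalized signal in the LN pool was 0.959 times that in the HN pool. *ACTA1* had a log2 ratio of -0.040, *CKM* of -0.24 and *DES* of -0.15, and 5 of the 7 matched markers were lower and 1 higher. Past the threshold were *MYH8*, a developmental myosin (0.35), and *MB*, the myoglobin gene (-0.37), both named after their values were seen. The brightest probe of *MYH8*, with signals of 103763 and 105248, gave 0.041, and with the brightest probe of each gene no muscle marker was past the threshold.

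Markers of the cell types best known for *GPNMB* were mostly lower or mixed. Of 15 macrophage markers with a value, 12 were lower and 3 higher, with a median log2 ratio of -0.071 and a summed signal 0.969 times that of the HN pool. Most of this sum came from 1 probe of *APOE*, with signals of 60749 and 58959, while the complement genes *C1QA* (-0.29), *C1QB* (-0.45) and *C1QC* (-0.40) were lower; these 4 genes are named after their values were seen. *CD68* had a log2 ratio of -0.35 (-0.13 after the normexp correction), *CD163* of 0.023 and *CSF1R* of -0.062, whereas *LGALS3* was higher (0.55, named after its value was seen). *ITGAM* was not well above background on either array, and *MRC1* was not matched. Of 6 osteoclast markers, which include *ACP5* and *CTSK* of the lists above, 3 were higher and 3 lower, with a summed signal 0.839 times that of HN, and *CALCR* had a log2 ratio of 0.17. The median log2 ratio of this list was 0.028. Most of the fall in its sum came from 1 probe of *ACP5*, with signals of 1555 and 1170. Of 5 melanocyte markers with a value 4 were lower, and the summed signal was 0.843 times that of HN. The pigment genes *TYR* and *MLANA* were not well above background on either array, and *DCT* had a log2 ratio of -0.35. *TYRP1* was at least 2.26-fold higher by 1 probe that was dim on the HN array, with signals of 2.49 and 10.3, while another of its probes was brighter on the HN array, was not well above background in LN and gave no fold. After the normexp correction its log2 ratio was 0.082.

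Neutrophil and fibroblast markers were mostly higher in LN. Of 5 neutrophil markers 4 were higher, and 1 was lower with a limit of -0.79 from a probe dim on the LN array. *S100A8*, with signals of 151.1 and 402.5, was 2.62-fold higher, *S100A9* 2.37-fold (a log2 ratio of 0.78, under 2-fold, after the normexp correction) and *S100A12* 1.52-fold, and the summed signal of the neutrophil list was 1.68 times that of the HN pool. All 6 fibroblast markers were higher as well, with a median log2 ratio of 0.34 (*DCN* 0.11, *LUM* 0.35, *PDGFRA* 0.22), and a summed signal 1.27 times that of the HN pool. Of 6 Schwann cell markers 4 were higher and 2 lower, with a median log2 ratio of 0.016, and *S100B* had a value of 0.0029. Of the adipocyte markers in these whole muscle pools, *FABP4* (0.39) and *CIDEC* (0.22) were higher and *PLIN1* (-0.14) was lower. Of 6 endothelial markers 2 were higher and 4 lower, with a median log2 ratio of -0.13 and a summed signal 0.839 times that of HN. With probes well above background on both arrays only, 1 was higher and 5 lower, with a median of -0.21. *PECAM1* (-0.32) and *CDH5* (-0.19) were lower, and *VWF* had a log2 ratio of 0.024, with 4 of its 5 probes lower, 1 of them a limit. Of 4 erythroid markers with a value 3 were lower, with *HBB* at -0.17, *HBA* at 0.0021 and *ALAS2* at -0.032. The part of these cell types in the values of *GPNMB* and the other members was not tested.

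**Figure D4:**
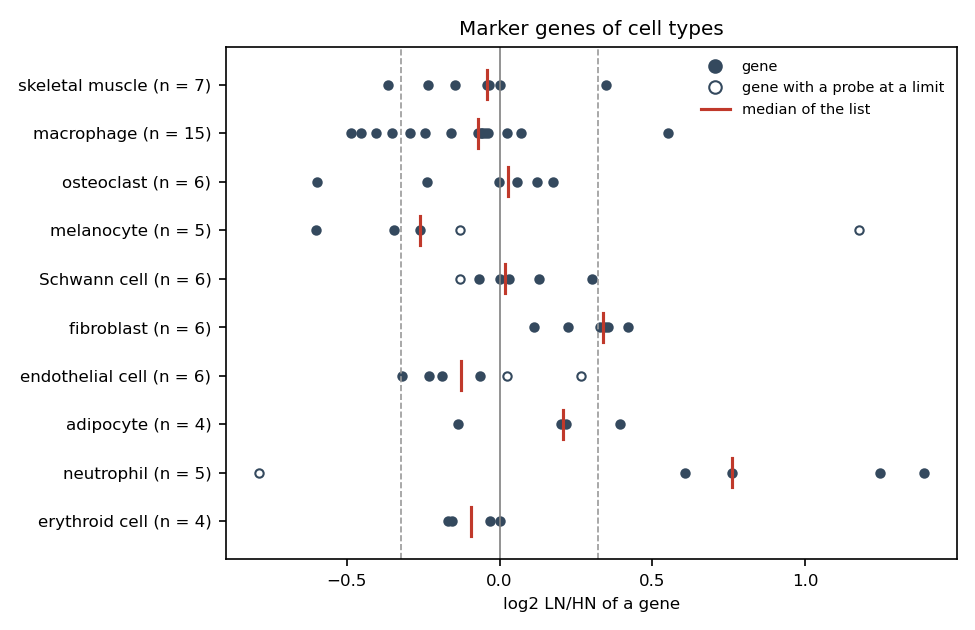
Log2 LN/HN of marker genes of 10 cell types (circles; open where a probe is at a limit), with the median of each list (vertical bar) and the 0.32 threshold in either direction (dashed lines). The neutrophil list has the highest median, 0.76, and 12 of the 15 macrophage markers lie below 0.

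The position of *GPNMB* among the members was also read under 11 other ways of processing the arrays. It was the highest member, and the only one past the 0.32 threshold higher, in each of them. Its difference ranged from 1.84-fold, after the normexp background correction with an offset of 50, which compresses dim signals, to 2.98-fold after cyclic loess. The next member lay between 0.21 and 0.29 on the log2 scale. From the deposited normalized values, the difference came to 2.85-fold. Over the 12 settings, 10 members were higher in each, 14 were lower in each, and 8 took both signs or 0, namely *MITF*, *NPC1*, *MCOLN1*, *CTSB*, *CTSK*, *GLA*, *HEXA* and *ASAH1*. All settings reprocess the same arrays, so a kept sign is not independent evidence. The share of all genes that kept their sign was not computed.

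**Figure D5:**
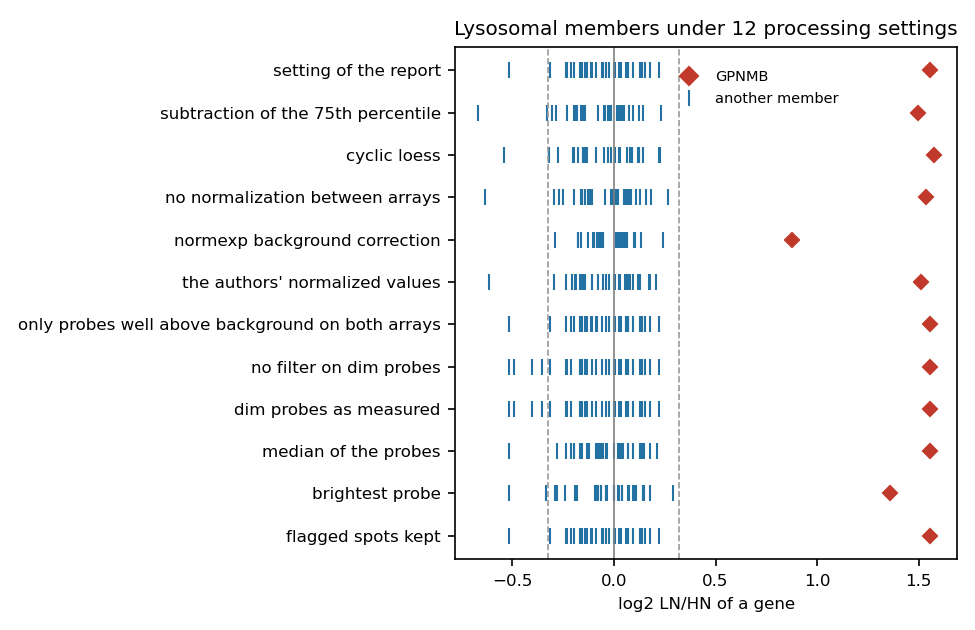
Log2 LN/HN of *GPNMB* (diamonds) and of the 31 other members (ticks) under the setting of the report and 11 alternatives; dashed lines mark the 0.32 threshold. *GPNMB* lies between 0.88 and 1.58 in all 12, and no other member passes 0.29.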

How the data were processed

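RNA pooled from 4 fetuses per group was measured on 2 one-color Agilent bovine arrays. The authors deposited the spot intensity of each array from Agilent Feature Extraction 11.0.1.1, per the submitters' processing notes, background-corrected by the software and not normalized between arrays. They also deposited log2 values of 30027 probes, which the methods describe as quantile-normalized (GeneSpring GX); that their scale is log2 was judged from the values.

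The log2 intensities of 43803 non-control spots were normalized by the quantile method, which the study names, with limma 3.58.1 in R 4.3.3. Outlier-flagged spots (13) were left out, and repeated spots averaged. The 32775 probes called well above background in HN, LN or both were used. For a probe dim on 1 array, the lowest normalized log2 signal well above background there (2.27 on HN, 2.82 on LN), or its own value if higher, replaced the dim side, and no fold was given where the bright side was not above it. A gene is the mean of its probes. Accessions matched a symbol for 26742 probes through the table of assembly ARS-UCD2.0, used for names only, since the array design refers to an older build. A gene called not matched may be present under another identifier.

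No test was possible with 1 array per group, and the number of arrays limits the precision. The software marked 74.5% of HN spots and 70.9% of LN spots as well above background, with 0 saturated. Repeated spots of 42 probes gave a spot SD of 0.085 on the log2 ratio. The members, lists, thresholds and alternatives were chosen with earlier results of these data known. Genes were named by rule: every member; of the other lysosomal genes, at most the 6 largest rises and 6 largest falls past the 0.32 threshold measured on both arrays, and the MiT/TFE factors, relatives and partners of *GPNMB*; of the markers, the first 3 with a value and any past 2-fold. Some genes that this rule names are not reported here. The normexp alternative used median spot signals. Tables came from pandas 2.3.3 and numpy 2.4.6 under Python 3.11.15, figures from matplotlib 3.10.9, and the steps were tested on simulated data.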

Additional observations from a re-analysis of the deposited data

How the results depend on the processing

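Medians and counts were recomputed under 11 alternatives. The median log2 ratio of all 32 members, -0.032 as processed for the report, lay between -0.045 and 0.014, being above 0 after normexp only. That of the other lysosomal genes lay between -0.079 and -0.018, and that of all genes between -0.042 and 0.013. *GPNMB* came to 0.88 with normexp and to 1.36 with its brightest probe (log2 ratio). The number of members past the 0.32 threshold lower, 1 as reported, was 2 with the 75th percentile subtracted (*CTSD* and *PSAP*) and with the brightest probe (*GAA* and *PSAP*), and 0 after normexp, where 1.98% of all genes were past it lower. It was 4 with dim probes as measured and without a filter on dim probes (*ATP6AP1*, *LIPA*, *SGSH* and *PSAP*), in each case through a probe dim on the LN array except for *PSAP*. With 32 members, this is near the share of all genes under these settings, 11.6% and 13.4%. The number of genes past 2-fold, 195 as reported, was 13 after normexp, 124 with probes well above background on both arrays, 466 with dim probes as measured and 1190 without a filter. Dim signals thus limit these counts, since 4 probes of the members and 1852 of all 2136 probes detected on 1 array only were dim on the LN array. No paired analysis was possible because each group has 1 array.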

Other observations

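The probes of a single lysosomal gene differed widely in signal, and the dim ones scattered more. Among the 69 probes of members other than *GPNMB* measured on both arrays, the 44 with a mean signal of at least 100 had an SD of the log2 ratio of 0.16 and values from -0.43 to 0.34. The 25 dimmer probes had an SD of 0.21 and values from -0.52 to 0.36. Medians were -0.019 and -0.024. *ATP6V1G2*, whose 2 probes had HN signals of 317.5 and 252.9, kept a log2 ratio between -0.72 and -0.57 in every setting, whereas that of *ATP6V0A1*, with a dim probe, ranged from -1.16 to -0.087.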
